A study of Homo sapiens with 6 samples.

Results

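Of 20514 rows of an RNA-seq count table from A172 cells, 95 were at a similar level after an siRNA against ADAR1 and were at least 2-fold lower when an siRNA against Staufen1 was given as well. A row pools the UCSC hg19 transcripts that the authors counted together and stands for a gene. The 95 rows were chosen by their levels in CPM (reads per 1000000 reads of the library total), averaged over the libraries of a group with 0.1 added. A member needed a siADAR1 level of at least 2, an absolute log2 ratio of siADAR1 to siControl under 0.5, and a log2 ratio of the combined knockdown to siADAR1 of -1 or less. The level was reached by 12130 rows. Of the rows that also met the limit on siADAR1 against siControl, 6046 in number and called level rows here, 95 (1.57%) met the limit on the fall, and 42 (0.695%) were at least 2-fold higher instead.

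A172 is an established human glioblastoma line. The siControl, siADAR1 and combined (siADAR1 and siStaufen1) groups had 2 libraries each, replicates a and b. The treatment text, identical for all 6 libraries, also mentions transfection of an HA-STAU1 plasmid on the next day. It is silent on the Staufen1 siRNA, and the groups are named by their transfection labels. All libraries come from this 1 line. No group given only the Staufen1 siRNA was analysed here, and its effect is seen only on top of the ADAR1 siRNA. The labels do not say whether replicates came from separate cultures, so their spread may be technical. In bulk RNA, a loss of transcript in every cell and a loss of the cells that carry it cannot be told apart.

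ADAR1 converts adenosine to inosine in double-stranded RNA. Staufen1 (STAU1) binds double-stranded RNA structures, often in the 3′ ends of mRNAs, and can recruit the helicase UPF1, after which the mRNA is degraded. Staufen1 also takes part in the transport and translation of mRNAs. When Staufen-mediated decay is lost, its direct targets are generally more stable.

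The rows carry transcript IDs without gene names. A RefSeq gene table (GRCh38.p14) lists a few such IDs among its synonyms, and 0 of the 95 members were among the 6 rows it matched. The functions of the members, the targeted genes and the markers of the cell line were therefore not analysed here. Only the member with the largest fall and the member with the most reads are given by ID, and the others by their rank. Row lengths were not used either, so CPM orders the rows by reads and not by molecules.

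All 6 libraries were deep, with 20291057 to 29508632 reads. The factors that edgeR's TMM method gave on top of library totals were 0.887 and 0.902 for siControl, 1.10 and 1.10 for siADAR1, and 1.02 and 1.01 for the combined knockdown. Over the 12130 rows, TMM lowered the log2 ratio of siADAR1 to siControl by a median of 0.30, and raised that of the combined knockdown to siADAR1 by 0.11. The rule used library totals, and this bears on which rows count as level.

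Together the members took 0.603% and 0.586% of the reads in the siControl libraries and 0.597% and 0.59% in the siADAR1 libraries. In the combined knockdown they took 0.228% and 0.227%. The replicates of each group lay close to each other and the combined knockdown stood apart, as the rule requires. The 10 members with the most reads made up 47.7% to 51.2% of the members' reads in every library, so the summed level rests largely on them.

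The median member stood at 28.8 CPM in siControl, 32.0 in siADAR1 and 10.5 in the combined knockdown. Means of single members ran from 1.73 to 919.5 in siControl, from 2.0 to 681 in siADAR1 and from 0.0612 to 253 in the combined knockdown. The median log2 ratio of the combined knockdown to siADAR1 was -1.35, with quartiles of -1.67 and -1.12, against a median of -0.03 over all level rows. Because the rule chose these ratios, they carry no test.

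**Figure D1:**
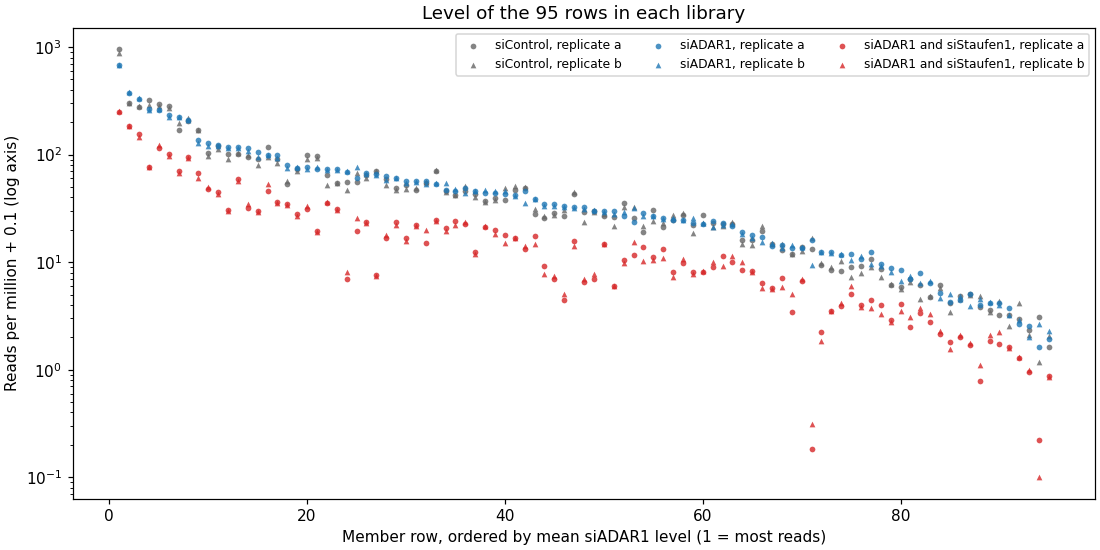
CPM plus 0.1 in each library (log axis) for the 95 members, ordered by their mean siADAR1 level, with circles for replicate a and triangles for replicate b. Grey siControl and blue siADAR1 points run together, and both red points of the combined knockdown lie below them for every member. Ranks 71 and 94 by level are the members with the fewest reads left.

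Members occurred at every level. Between 2 and 5 CPM in siADAR1 there were 12 members among 706 level rows (1.7%), and between 5 and 20 there were 20 among 1578 (1.27%). Between 20 and 100 there were 48 among 2439 (1.97%), and at 100 or more 15 among 1323 (1.13%). The middle of the range thus held 50.5% of the members and 40.3% of the level rows. The median log2 ratio was -1.19, -1.36, -1.37 and -1.34 in these classes, from low to high. Across the 95 members, the log2 siADAR1 level and the log2 ratio had a Pearson's r of 0.05 and a Spearman's rho of -0.08. The rule cuts the ratio at -1, which narrows its range at every level. Both measures also share the siADAR1 libraries, and this is a description only.

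Most falls were modest. The log2 ratio was between -1 and -1.5 in 63 members, between -1.5 and -2 in 20, and -2 or less, a 4-fold fall, in 12. The 4-fold members had siADAR1 levels of 2.04 to 69.6 CPM, and none of the 15 members at 100 or more was among them. Under library totals, the siADAR1 mean was above the siControl mean in 9 of these 12 rows, against 57.0% of level rows. TMM lowered this ratio by a median of 0.30 over the 12130 rows, so the count depends on the scaling. Of the 12, 4 held a single transcript ID.

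The largest fall was that of uc001jep.4, a row of 4 transcripts. It stood at 13.1 and 16.5 CPM in siControl, 16.1 and 9.35 in siADAR1, and 0.0816 and 0.213 in the combined knockdown. The siControl and siADAR1 libraries overlapped, and both combined libraries were near 0. The combined values rest on 2 and 6 reads, against 405 and 276 in siADAR1. Pooled over replicates, the combined level was 1.22% of the siADAR1 level, with a 95% exact binomial interval of 0.524% to 2.41% that covers counting error only. No other member was reduced this far, and the siADAR1 replicates of this row differed more (0.78 on the log2 scale) than those of any other member.

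The member next in fall size held 1 transcript and few reads anywhere. It had 60 and 27 reads in siControl, 38 and 76 in siADAR1, and 3 and 0 in the combined knockdown. Its pooled combined level was 2.73% of siADAR1, with an exact interval of 0.555% to 8.18%. The siControl replicates differed by 1.36 on the log2 scale, the widest disagreement among all members, so its level before the fall is poorly fixed.

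The members ranked 3 to 6 by fall had more reads and replicates that agreed. The third, a row of 3 transcripts, stood at 55.0 and 46.6 CPM in siControl, 69.0 and 70.2 in siADAR1, and 6.89 and 7.95 in the combined knockdown. The fourth, a row of 6 transcripts, stood at 70.3 and 70.1, then 66.4 and 63.9, then 7.46 and 7.28 in the same order of groups. The combined knockdown kept 10.7% of the siADAR1 level in the former and 11.3% in the latter, yet siADAR1 lay above siControl in one and below it in the other. The fifth went from 27.0 and 30.5 in siControl to 33.0 and 32.5 in siADAR1 and 4.36 and 4.93 in the combined knockdown. The sixth had 9.27 and 9.66, then 12.4 and 12.3, then 2.12 and 1.74. In all 4 rows the combined libraries were far below the range of the other 4 libraries.

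Ranks 7, 8 and 9 were close to one another. Their combined levels were 20.6%, 20.9% and 21.0% of siADAR1, at siADAR1 means of 28.9 ± 1.69, 32.0 ± 0.925 and 33.8 ± 0.845 CPM (SD, n = 2 each). Their rows held 5, 1 and 4 transcripts, so like levels and falls came with different numbers of transcripts. Ranks 10 to 12 kept 20.3%, 24.1% and 24.5%, the first of them at only 4.17 ± 0.435 CPM in siADAR1.

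The member with the most reads was uc001kin.3, a row of 5 transcripts and the 39th by fall. It stood at 957 and 882 CPM in siControl, 684 and 679 in siADAR1, and 251 and 255 in the combined knockdown. Its libraries did not overlap between any of the groups: siADAR1 lay below siControl, at a log2 ratio of -0.43 that is near the limit of 0.5, and the combined knockdown lay below siADAR1, at -1.43. This row therefore was lower in both knockdowns.

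Under library totals, the next members by reads differed in their order against siControl. The member ranked 2 by level, a row of 7 transcripts, had 305 and 302 CPM in siControl, 377 and 383 in siADAR1, and 183 and 185 in the combined knockdown. The member ranked 3, a row of 10 transcripts and the most of any member, had 276 and 285, then 329 and 333, then 154 and 145. Under library totals both were higher in siADAR1 than in siControl, at log2 ratios of 0.32 and 0.24. With TMM these ratios were 0.02 and -0.06, so the rise rests on the scaling. Both rows kept 48.5% and 45.1% of the siADAR1 level, in the same order. The member ranked 4, a row of 4 transcripts, had 322 and 289.8, then 264 and 262, then 76.8 and 77. It was lower already in siADAR1 and kept 29.2%. The member ranked 14 by fall, with 2 transcripts, had 102 and 91.1, then 118 and 116, then 30.3 and 30.1, the largest fall among the 15 members at 100 or more in siADAR1.

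Against siControl, the median log2 ratio of the combined knockdown was -1.31, from -5.91 to -0.56. Of the 95 members, 73 were at least 2-fold below siControl and 9 at least 4-fold. Over the 6046 level rows, which include the members, these counts were 103 and 9. Under library totals, the members less than 2-fold below siControl were all above siControl in siADAR1. A 2-fold fall from there brought them less far below siControl. TMM lowered the ratio of siADAR1 to siControl in most rows, so these counts and this order depend on the scaling.

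Replicates agreed closely in most rows. The absolute log2 difference between replicates a and b had a median of 0.11 in siControl, 0.07 in siADAR1 and 0.09 in the combined knockdown, against 0.11, 0.07 and 0.07 over all level rows. The largest of a member's 3 differences was under 0.25 in 60 members (63.2%) and under 0.5 in 92 (96.8%), against 73.1% and 93.9% of the level rows. It was smaller at higher levels, with a median of 0.34 at 2 to 5 CPM in siADAR1, 0.27 at 5 to 20, 0.16 at 20 to 100 and 0.09 at 100 or more. Across the 95 members Spearman's rho between log2 siADAR1 level and this difference was -0.59 (Pearson's r -0.53), a description in which fewer reads go with wider disagreement. In the combined knockdown, 2 members had under 10 reads in a library and 13 had under 50.

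Both combined libraries lay below both siADAR1 libraries in 95 of 95 members, where 48.1% of the 14711 rows tested by edgeR did so. They lay below both siControl libraries in 95 of 95 as well, against 24.7% of tested rows. The rule used these libraries, so neither count is support. Setting each combined library against each siADAR1 library gives 4 ratios per member. All 4 were -1 or less on the log2 scale in 72 members and -0.8 or less in 92, and the range over the 4 had a median of 0.20.

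**Figure D2:**
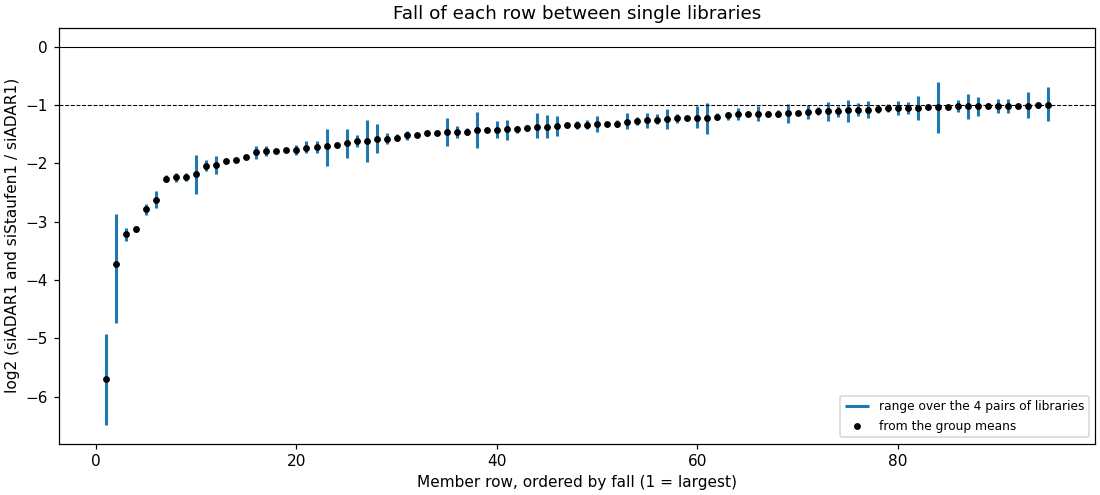
For each member, ordered by fall, the black point is the log2 ratio of the group means and the bar spans the 4 ratios between single combined and siADAR1 libraries. The bars are longest for the first 2 members, which have the fewest reads left, and cross the dashed limit of -1 mainly at the right, where the smallest ratio was -0.61.

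That smallest ratio belonged to the member ranked 84 by fall, a row of 3 transcripts. Its values were 25.8 and 32.7 CPM in siControl, 23.5 and 32.1 in siADAR1, and 11.5 and 15.4 in the combined knockdown. Replicate b exceeded a in all 3 groups of this row, by 0.34 to 0.45 on the log2 scale, so libraries with the same letter showed similar falls. Such an order in all 3 groups was seen in 7 members (7.37%), against 10.3% of level rows, and the opposite order in 17 (17.9%), against 16.6%.

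At the limits, membership turned on small amounts. The 2 members just inside the fall limit had log2 ratios of -1.004 and -1.001, and the 2 level rows just outside had -0.999 and -0.997. Between -1.1 and -1 there were 21 members, and between -1 and -0.9 there were 34 level rows. Just inside the limit against siControl were members at 0.478 and 0.485, and just outside were rows at 0.504 and 0.504. The 2 members with the lowest siADAR1 levels were at 2.1 and 2.14 with 0.1 added, and the nearest rows below the limit at 1.97 and 1.91. The row that the rule sets aside, one of 7 transcripts, had the largest fall of all rows at the required level, at -6.34. It went from 189 and 191 CPM in siControl to 283 and 280 in siADAR1 and 3.22 and 3.51 in the combined knockdown. Its log2 ratio of siADAR1 to siControl was 0.57, so it would not have met the rule under library totals, although with TMM scaling it was 0.27.

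The number of transcripts in a row was not used by the rule. The 95 members held 288 transcript IDs, with a median of 3 per row, quartiles of 2 and 4, and a highest value of 10. The 6046 level rows also had a median of 3, with quartiles of 2 and 5 and a highest value of 72. Rows with a single transcript made up 23 members (24.2%) against 18.7% of level rows, and rows with 6 or more made up 9 members (9.47%) against 19.3%. Rows are not replicates, so these shares are given without a test and nothing particular to the members is read from them. In members at 20 to 100 CPM, 14 of 48 (29.2%) were single-transcript rows, against 15.3% of level rows in that class. At 2 to 5 it was 4 of 12 (33.3%) against 28.2%. At 5 to 20 it was 3 of 20 (15%) against 21.1%, and at 100 or more 2 of 15 (13.3%) against 16.9%, so the difference did not run one way across levels.

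**Figure D3:**
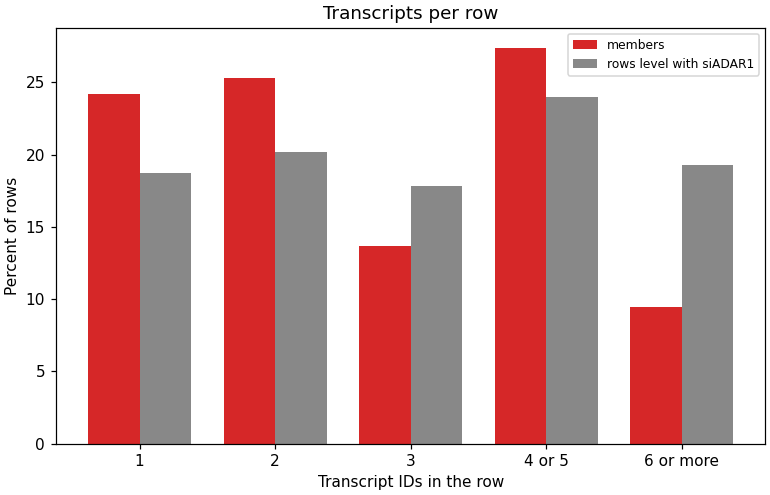
Percent of rows by the number of transcript IDs in a row, for the 95 members (red) and the 6046 level rows (grey). Members stand higher at 1, 2 and 4 or 5 transcripts and lower at 3 and at 6 or more, where 9.47% of members and 19.3% of level rows lie.

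Falls were of like size whatever the number of transcripts. The median log2 ratio was -1.46 in the 23 members with 1 transcript, -1.29 in the 37 with 2 or 3, and -1.34 in the 35 with 4 or more. The 4-fold falls numbered 4, 2 and 6 in these groups. Replicates agreed to a like degree, with median largest differences of 0.16, 0.18 and 0.19. The 9 members with 6 or more transcripts ranged from the 4th to the 83rd place by fall. Across members, Pearson's r between transcripts per row and log2 ratio was 0.00, and Spearman's rho was 0.08, over the range that the rule left.

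Whether these rows were level with siADAR1 alone depended on scaling. Under library totals, the siADAR1 mean was above siControl in 65 members and below in 30, with a median log2 ratio of 0.14, against 0.06 over all level rows. Both siADAR1 libraries lay above both siControl libraries in 51 members, where 58.6% of tested rows did so, and below in 19, against 23.2%, leaving 25 that overlapped. With TMM the median of the 95 turned to -0.16, with 20 above and 75 below, and the counts without overlap turned to 11 above and 53 below. The matching shares over all tested rows are not given on this scale. TMM lowered this ratio by a median of 0.30 over the 12130 rows, so the turn is not read as a trait of the members. The log2 ratio of the combined knockdown to siADAR1 shifted less: the median went from -1.35 to -1.24, and all 95 members stayed at -0.85 or less. This follows from choosing rows at -1 or less and from a median TMM shift of 0.11, and is not support. With TMM, 23 members missed the limit on the fall.

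edgeR's quasi-likelihood test, which scales with TMM and adjusts by Benjamini-Hochberg over 14711 rows, was fitted to the whole table. Against siControl it called 36 of the 95 members lower with siADAR1 alone, where 29.7% of tested rows were called lower, and 1 member higher, where 32.9% were. Of the 6046 level rows, from which the members were drawn, 2997 (49.6%) were called lower and 76 (1.26%) higher, so calls of either kind were no more frequent in the members (37.9% and 1.05%) than in these rows. The row called higher, named by its rank after its value was seen, was the 63rd by fall. It had 53.5 and 57.3 CPM in siControl and 79.9 and 75.4 in siADAR1, an edgeR log2 change of 0.19. It kept no call with siControl replicate a, either siADAR1 replicate or combined replicate b left out. With library totals in place of TMM, edgeR called 31 members higher and 13 lower. No shares over all rows are given with library totals, so these calls are not read as a trait of the members. Given the 36 called lower under TMM, a fall only with the Staufen1 siRNA does not describe all members on that scale. In the 36 called lower, the log2 change with siADAR1 ran from -0.75 to -0.19 with a median of -0.44, and the further change on adding the Staufen1 siRNA had a median of -1.21. The limits of the rule fix that the further change is the larger.

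The same fit called 95 of 95 members lower in the combined knockdown than in siADAR1, where 21.5% of tested rows were called lower, and 95 of 95 lower than in siControl, where 25.8% were. The rule used all of these libraries, so nothing is read from these counts. These comparisons also share libraries with each other.

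With TMM levels in place of library totals, the rule gave 100 rows, of which 57 were among the 95. Of the 38 members lost, 23 missed the limit on the fall, 15 the limit against siControl and 2 the level, with some missing more than 1 limit. All 43 rows gained had been outside the siControl limit under library totals. The 57 rows chosen by both scalings had a median log2 ratio of -1.48 under library totals and -1.37 with TMM. They included 10 of the 12 members with 4-fold falls and 9 of the 15 at 100 or more CPM in siADAR1. Of the 57, edgeR called 16 lower with siADAR1 alone, where 29.7% of tested rows and 49.6% of level rows were called lower. The 57 were also limited to under 0.5 in this ratio with TMM, the scaling that edgeR used. The level rows were limited only under library totals, so nothing is read from this difference. The median siADAR1 level of the 57 was 33.8 CPM, close to the 32.0 of all 95. The rows uc001jep.4 and uc001kin.3 were not among them: with TMM their log2 ratios of siADAR1 to siControl were -0.51 and -0.73.

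**Figure D4:**
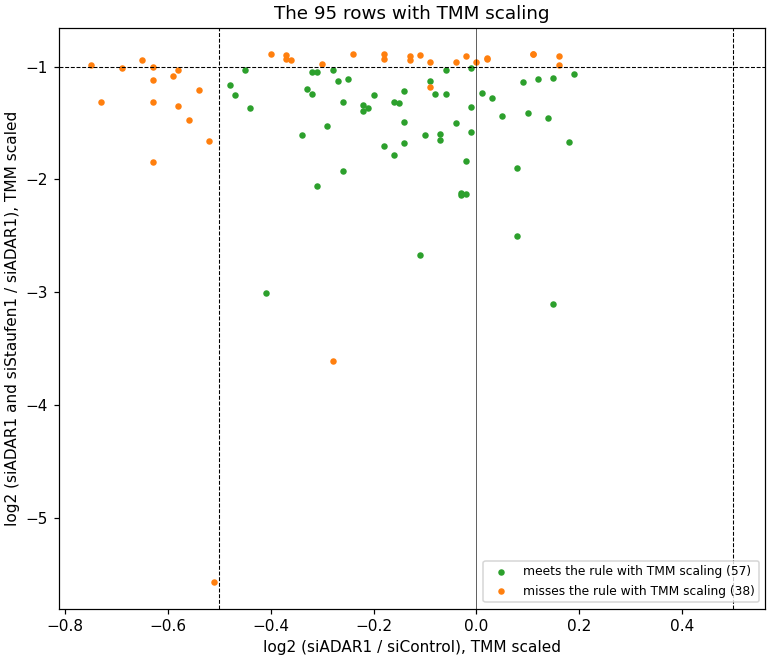
The 95 members with TMM scaled levels, with the log2 ratio of siADAR1 to siControl on the x axis and of the combined knockdown to siADAR1 on the y axis. Most points (75 of 95) lie left of 0. Green points (57) meet the rule on this scale, and orange points (38) miss it, mostly at the left limit of -0.5 or just above -1.

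The mirror group of 42 level rows that were at least 2-fold higher in the combined knockdown had fewer reads. Its median siADAR1 level was 5.17 CPM, against 32.0 for the 95 members, and its median largest replicate difference 0.29, against 0.17. A single transcript was held by 35.7% of its rows, against 24.2% of the members. With TMM the mirror group numbered 43, against 100 rows that were lower. More level rows thus passed the 2-fold limit as a fall than as a rise on either scale. Calls by edgeR, which have no fold limit and scale with TMM, had the other order. In the combined knockdown against siADAR1, edgeR called 855 of the 6046 level rows lower (14.1%) and 1822 higher (30.1%). TMM raised this log2 ratio by a median of 0.11 over the 12130 rows. Under library totals, its median over the level rows was -0.03. The order of the calls may therefore rest on the scaling as well as on the missing fold limit. The levels and folds of the members and of the mirror group were set by their rules, and the differences between them were not tested.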

How the data were processed

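RNA-seq libraries were made from total RNA of A172 cells with the Lexogen SENSE mRNA kit, per the labels' protocols. The authors deposited estimated counts per row as whole numbers in 6 columns, each matched to a library by its labels. RSEM 1.2.3, edgeR and hg19 are named, without roles, per the submitters' processing notes. The aligner and the strand setting were not given in the sources used here, and reads of antisense or near-identical genes may be mixed.

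Levels were counts divided by the column total, times 1000000 (CPM). The counts, which rounding left as they were, were tested with edgeR 4.0.16 (R 4.3.3): filterByExpr with a minimum count of 10 and a total of 15, TMM, 1 model with a mean per group, 3 residual degrees of freedom, quasi-likelihood F tests, and an adjusted p of 0.05. The fit was tested on simulated data. Alternatives used DESeq2 1.42.0, limma 3.58.1, other scalings and limits, a replicate block, and each library left out.

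The members and lists were chosen with earlier results of these data known. The named rows are the member with the largest fall and that with the most siADAR1 reads. Gene lists and markers could not be applied to rows without gene names.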

Additional observations from a re-analysis of the deposited data

How the results depend on the processing

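Of 92 alternative values, 77 kept their direction and stayed within 1.5 times a reported count or within the spread between replicates of a reported median. Many of these are counts of members lower in the combined knockdown, which follow from the rule, so the tally is not support. The number of member rows ranged from 80 to 110 over the other scalings, added values, level limits and the mean of logs, and from 96 to 105 with each library left out in turn. Counts hide turnover: 57 of the 95 rows were kept with TMM scaling, 55 with DESeq2 scaling, and 84 to 90 with a library left out. With TMM, the members' median siADAR1 level was 29.1 CPM, their median log2 ratio of the combined knockdown to siADAR1 -1.24, and their median of siADAR1 to siControl reversed to -0.16. With a library left out, these medians ran from 31.7 to 32.5, from -1.38 to -1.32 and from 0.12 to 0.15. Members with both siADAR1 libraries above siControl numbered 11 with TMM and 6 with DESeq2 scaling, and those below 53 and 60. Scaling to library totals in edgeR called 31 members higher and 13 lower with siADAR1 against siControl. No shares over all rows are given on these scales, so nothing about the members is read from these counts. edgeR with DESeq2 size factors and the DESeq2 Wald test called 0 higher (1 and 0 at an unadjusted p under 0.05), and limma-voom 1. With each library left out, edgeR called 0 to 2 higher and 24 to 36 lower. By construction, another scaling shifts all ratios together.

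The replicate block gave 95, 95, 1 and 38 calls for the combined knockdown below siADAR1, below siControl, and for siADAR1 above and below siControl. The calls for the combined knockdown follow from the rule. No shares over all rows are given with the block, so nothing about the members is read from these counts. The differences between replicates a and b had correlations of 0.0507, 0.0211 and 0.00604 between groups over 14711 rows, too low to treat the letters as pairs. With siADAR1 replicate a left out, the members' median log2 ratio of the combined knockdown to siADAR1 was -1.33. An edgeR fit with a library left out assumes that the lone library of the group varies like the others. Depth limits the 13 members with under 50 reads in a combined library.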
